A study of Rattus norvegicus with 4 samples.

Results

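Igfals, Igfbp2 and Stat5b belong to the growth hormone and insulin-like growth factor (IGF) axis, and each was printed as a cDNA clone on the arrays used here. Their spots were found by gene symbol in the probe annotation, which gave 6 of the 7688 spots, 2 for each gene, all listed under that single symbol and all with a measured ratio on every array. The 4 two-colour arrays each compared liver RNA of a ciprofibrate-treated rat with a control pool. The treated animals were female Fischer rats that received ciprofibrate at 50 mg per kg of body weight per day for 60 days, and the pool held total liver RNA from 5 control rats, whose sex, strain and ages are not given in the labels, nor are the ages of the treated rats. Each array is described as holding 1 of 4 treated rats. The arrays are called replicates 1 to 4 in the order of the samples.

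Ciprofibrate is given to lower blood lipids; it is an agonist of PPARα, a nuclear receptor of hepatocytes, and in rodent liver it makes peroxisomes multiply. Growth hormone from the pituitary binds its receptor Ghr on hepatocytes, and the associated kinase Jak2 phosphorylates STAT5B, which enters the nucleus and raises transcription of Igf1, Igfals and other liver genes. Most circulating IGF-I travels in a complex of IGF-I, the binding protein IGFBP3 or IGFBP5, and the acid-labile subunit, which is the product of Igfals and is made by the liver. IGFBP2 is a further IGF-binding protein of plasma, and its liver mRNA is known to be high when growth hormone or insulin is low.

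The gene of Igfals lies on chromosome 10 from 14397076 to 14408439, that of Igfbp2 on chromosome 9 from 81864811 to 81892179 and that of Stat5b on chromosome 10 from 86205148 to 86276178 in the GRCr8 assembly. The part of each transcript that the spotted clone holds is not known here, so no exon or untranslated region can be assigned to a spot. The promoter windows of Igfals and Igfbp2 are shown because these genes had nearly the same ratio on most arrays, as given further on. They are RefSeq sequences of GRCr8, 250 bases before the start of transcription in lower case and 50 bases after it in capitals, from chr10:14403600-14403899 and chr9:81864561-81864860, both on the plus strand. The Igfals start in that table lies inside the annotated gene. The ratios of both genes went with their place on the slide, as described below, and shared regulation was not tested.
Igfals: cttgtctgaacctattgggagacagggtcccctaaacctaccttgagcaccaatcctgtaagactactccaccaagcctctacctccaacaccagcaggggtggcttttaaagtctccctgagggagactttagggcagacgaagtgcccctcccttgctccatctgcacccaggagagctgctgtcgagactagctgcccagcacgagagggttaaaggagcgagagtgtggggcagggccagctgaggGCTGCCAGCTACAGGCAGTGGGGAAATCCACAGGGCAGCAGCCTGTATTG
Igfbp2: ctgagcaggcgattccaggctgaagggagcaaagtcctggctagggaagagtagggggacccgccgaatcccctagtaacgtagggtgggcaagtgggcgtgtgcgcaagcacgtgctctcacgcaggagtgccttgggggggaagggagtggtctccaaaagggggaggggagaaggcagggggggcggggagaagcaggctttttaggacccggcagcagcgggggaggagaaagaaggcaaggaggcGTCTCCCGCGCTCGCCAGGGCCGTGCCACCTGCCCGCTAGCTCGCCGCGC

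The windows differ in base composition. GC content was 57.7% for Igfals, 66.7% for Igfbp2 and 82.7% for Stat5b, against a median of 51.7% over the 33469 promoter windows of the table. The Igfals window holds 4 CpG dinucleotides, that of Igfbp2 holds 20 and that of Stat5b holds 53. The palindromic element bound by STAT5 dimers, TTCNNNGAA, was searched on both strands. It occurred in 8.87% of all windows and in 0 of the 3 member windows, which says only that these letters are not in these 300 bases.

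The deposited value is the log10 of a ratio between the channels, read from the values themselves, and is given here as log2 after centring each array on its median. The labels list the treated liver as the first channel and the control liver as the second, and name no dyes. A positive value is therefore taken as likely higher in the treated rats. No array is listed with this order reversed. An effect of the channel on a clone therefore cannot be told apart from one of treatment, however alike the 4 arrays are. Of 32 textbook genes induced by peroxisome proliferators, 10 were measured on all arrays, and 6 had a mean above 0 and 4 a mean below 0. Of these, Ech1 (0.67), Me1 (0.43) and Acsl1 (0.41) were positive calls and Acot2 (-0.39) a negative one. Such calls made up 13.6% (positive) and 15% (negative) of all clones tested. The clone shared by Cyp4a3 and Cyp4a2, not counted among the 10, was a positive call at 0.89 (limma adjusted p = 0.00669). The split of 6 to 4 among the 10 genes is too even to settle the direction, so the reading rests on the channel order. The 4 arrays correlated with each other at a Pearson r between 0.47 and 0.76 across clones. Replicate 2 was the least alike, at 0.47, 0.52 and 0.50 with replicates 1, 3 and 4. Pairs without it were at 0.67 to 0.76. A ratio carries no level, so the liver identity of the RNA cannot be checked against marker levels.

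Igfals was the member whose ratio passed the test. Its first spot had deposited linear ratios of 1.19, 1.34, 1.25 and 1.27 on replicates 1 to 4, and its second spot had 1.11, 1.22, 1.21 and 1.24. All 8 values lie above 1, and the first spot is the higher of the pair on each array. After centring and averaging of both spots, Igfals was at 0.21, 0.33, 0.33 and 0.41 (log2) on replicates 1 to 4. The mean was 0.32 ± 0.08 (log2, SD, n = 4), a 1.25-fold higher ratio, with a 95% interval from 1.07-fold to 1.45-fold (limma adjusted p = 0.0394). The call is close to the threshold of 0.05, and 13.6% of the 4704 clones tested were called in this direction. The Igfals mean was above that of 84.8% of the clones tested.

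Igfbp2 showed nearly the same ratio and did not pass. Its first spot had deposited linear ratios of 1.04, 1.27, 1.20 and 1.19, and its second spot had 1.11, 1.29, 1.31 and 1.28 on replicates 1 to 4. The second spot is the higher on each array, and replicate 1 is the lowest array for both spots. The clone was at 0.12, 0.33, 0.36 and 0.38 (log2), with a mean of 0.30 ± 0.12 (SD, n = 4), 1.23-fold, and a 95% interval from 1.05-fold to 1.44-fold (limma adjusted p = 0.0558). The interval leaves out 1, but the p adjusted over all clones stayed above the threshold, and 83.2% of the clones had a lower mean.

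Stat5b lay near the middle of all clones. Its first spot had deposited linear ratios of 0.939, 0.799, 0.840 and 0.978, and its second spot had 0.987, 1.004, 0.908 and 0.887 on replicates 1 to 4. The spots disagreed most on replicate 2, by 0.33 on the log2 scale, and on replicate 4 they lay on opposite sides of 0 after centring, at 0.05 and -0.09. The clone was at -0.04, -0.19, -0.16 and -0.02 (log2), negative on 4 of 4 arrays, with a mean of -0.10 ± 0.08 (SD, n = 4). This did not pass (limma adjusted p = 0.436), and the 95% interval ran from 0.80-fold to 1.08-fold. A lower mean was found for 40.1% of the clones. Stat5a, a close paralogue that shares long stretches of coding sequence with Stat5b, is not among the listed clones, and cross-hybridisation of its mRNA to the Stat5b spots was not tested.

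**Figure D1:**
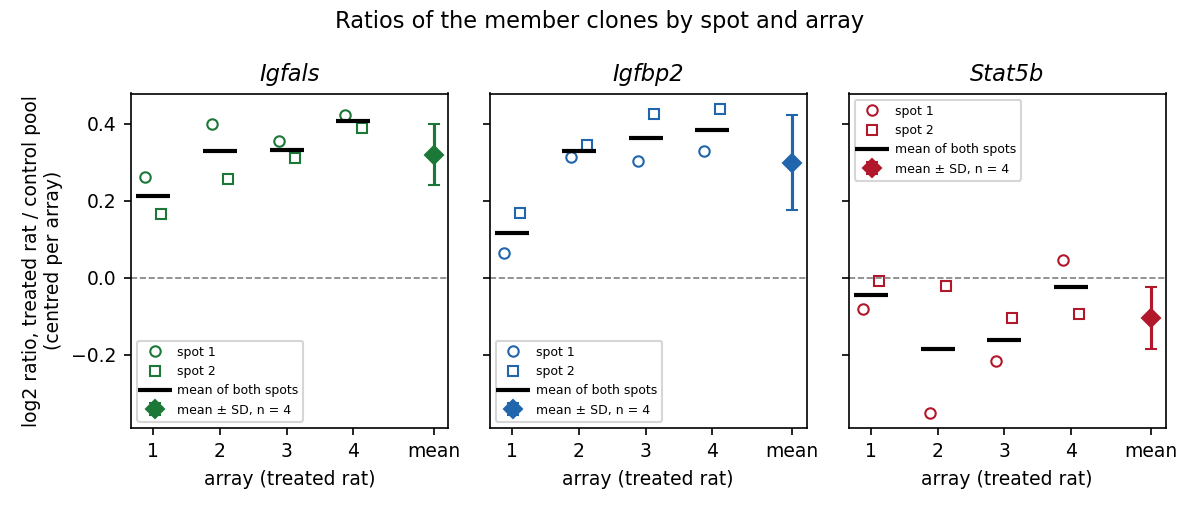
Centred log2 ratio of treated rat over control pool (vertical axis) on each array (horizontal axis) for the spots of Igfals, Igfbp2 and Stat5b, with circles for the first spot, squares for the second, black bars for their mean and diamonds for the mean ± SD over 4 arrays. The Igfals and Igfbp2 spots all lie above 0, while the Stat5b spots lie below 0 except the first spot on replicate 4, at 0.05.

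The repeat spots give the error between spots of a clone on the same array. Both spots of a member lie near each other in the layout described below. An error shared by both spots therefore does not enter their difference. Over all clones printed as a pair of spots, the spots correlated at an r between 0.79 and 0.90 on the 4 arrays, and their median absolute difference lay between 0.0799 and 0.0941 (log2). The Igfals pair differed by 0.10, 0.14, 0.05 and 0.03 and the Igfbp2 pair by 0.10, 0.03, 0.12 and 0.11 on replicates 1 to 4, both close to that median. The Stat5b difference of 0.33 on replicate 2 exceeded the 90th percentile of all pairs on that array, 0.31. The mean ratio of Stat5b is thus no larger than its own spot-to-spot differences on 3 of 4 arrays, whereas Igfals exceeded its spot difference on each array. Igfals had an SD over the arrays of 0.08 and Stat5b likewise 0.08, and Igfbp2 had 0.12, against a median of 0.21 over all clones tested. That median includes unlisted clones read from a single spot, whereas each member is a mean of 2 spots, so the SDs are not fully comparable. Spots of a gene taken singly straddled the threshold. Igfals was called from its first spot (0.34 ± 0.07, SD, n = 4, limma adjusted p = 0.0338) and not from its second (0.26 ± 0.09, limma adjusted p = 0.0749), and Igfbp2 from its second spot (0.32 ± 0.12, limma adjusted p = 0.0445) and not from its first (0.23 ± 0.12, limma adjusted p = 0.113). With each spot on its own, 13.6% of the spots were positive calls.

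Where the ratios of the members are set against each other on the same array, the binding protein genes lay above Stat5b. Igfals exceeded Stat5b by 0.26, 0.51, 0.49 and 0.43 (log2) on replicates 1 to 4, a mean difference of 0.42 ± 0.12 (SD, n = 4). Igfbp2 exceeded it by 0.16, 0.52, 0.52 and 0.41, a mean of 0.40 ± 0.17. Both differences were positive on 4 of 4 arrays and gave the smallest p that an exact two-sided sign-flip permutation test of 4 arrays allows, 0.13, or 0.188 adjusted over the 3 pairs of genes, so this test cannot place them below 0.05. On the assumption of normally distributed differences, the 95% interval ran from 0.24 to 0.61 for Igfals minus Stat5b and from 0.13 to 0.67 for Igfbp2 minus Stat5b. Igfals and Igfbp2 differed by 0.02 ± 0.05, with 2 arrays on each side of 0 (exact two-sided p = 0.75). Their largest gap was on replicate 1, where Igfals was 0.10 above Igfbp2. The gap depended on the place on the slide, at 0.12 ± 0.17 with the median of each block subtracted and 0.05 ± 0.14 with a smooth surface subtracted, as described next.

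The place of the clones on the slide went with these values. In the layout read from the values, 8 consecutive blocks of 31 by 31 spots, Igfbp2 lies in block 1 and Igfals and Stat5b lie in block 5, with Igfals in rows 13 and 17 and Stat5b in rows 26 and 30 of that block. The 4 odd-numbered blocks held 50.7% of the clones tested, and they held 94.98% of the positive but 27.6% of the negative calls. A smooth surface fitted within each block stood at 0.18, 0.19, 0.28 and 0.33 (log2) at the Igfals spots on replicates 1 to 4, close to the ratios of Igfals itself. With the surface subtracted and the arrays centred again, Igfals was at 0.01, 0.06, 0.03 and 0.03, with a mean of 0.03 ± 0.02 (SD, n = 4), and was not called (limma adjusted p = 0.735). The ratio of Igfals thus stood above the array median and about level with the spots around it.

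At the Igfbp2 spots the surface was at 0.25, 0.06, 0.43 and 0.38. Without it Igfbp2 was at -0.16, 0.20, -0.09 and -0.04, positive on replicate 2 only, and its mean of -0.02 ± 0.16 (SD, n = 4) had the opposite sign (limma adjusted p = 0.836). Stat5b fell as well, and so moved away from 0. The surface at its spots was positive on each array, between 0.14 and 0.32, and without it Stat5b was at -0.21, -0.46, -0.40 and -0.39, a mean of -0.36 ± 0.11. That is a negative call (limma adjusted p = 0.0328), in a setting where 11.4% of the clones were called negative and 2.95% positive. The difference between Igfals and Stat5b was 0.39 ± 0.13 without the surface, against 0.42 ± 0.12 before. Both lie in the same block, so subtracting the median of each block cannot change this difference. The difference between Igfbp2 and Stat5b was 0.34 ± 0.25 without the surface.

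**Figure D2:**
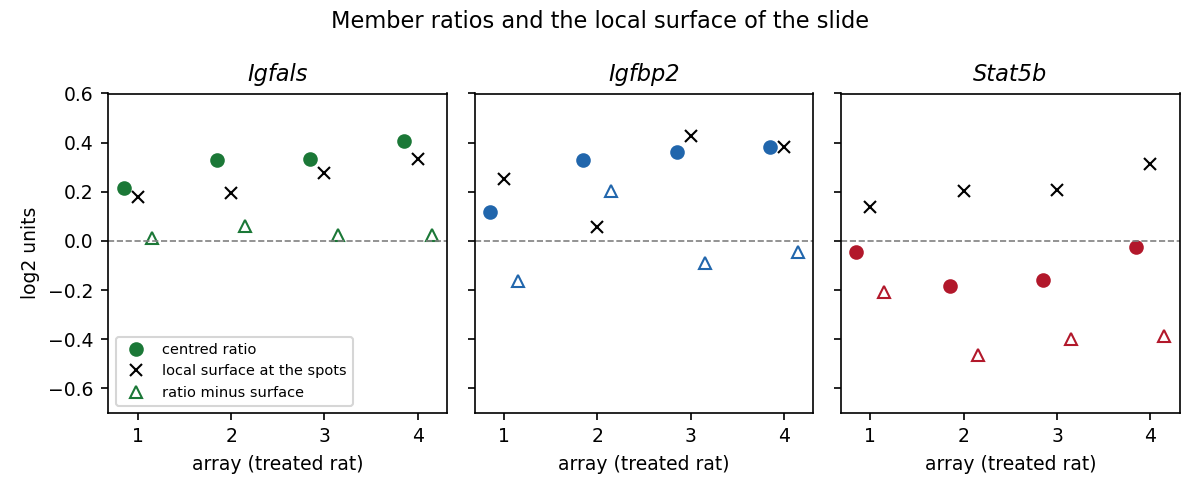
Centred log2 ratio (filled circles), fitted surface at the spots (crosses) and ratio without the surface after centring again (open triangles), in log2 units on the vertical axis, for each array on the horizontal axis. The crosses lie between 0.18 and 0.33 for Igfals, close to its circles, and above all circles of Stat5b, whose triangles lie between -0.46 and -0.21.

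The call of Igfals also depended on the arrays used. It held without replicate 2 (limma adjusted p = 0.0319) and ended without replicate 1, 3 or 4 (limma adjusted p = 0.0811, 0.166 and 0.154), while its mean stayed between 0.29 and 0.36. Positive calls over all clones were 638 with all arrays, 872 without replicate 2 and 308, 99 and 134 without replicates 1, 3 and 4. Negative calls were 706 with all arrays, and 388, 895, 323 and 354 without replicates 1 to 4. The same background stands beside the calls of other genes given below. Loss of power with 3 arrays was not tested. Igfbp2 did not pass without any 1 of the arrays, at means between 0.27 and 0.36, and Stat5b did not either, at means between -0.13 and -0.08. Not centring the arrays also ended the Igfals call, at 0.30 (limma adjusted p = 0.0549).

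**Figure D3:**
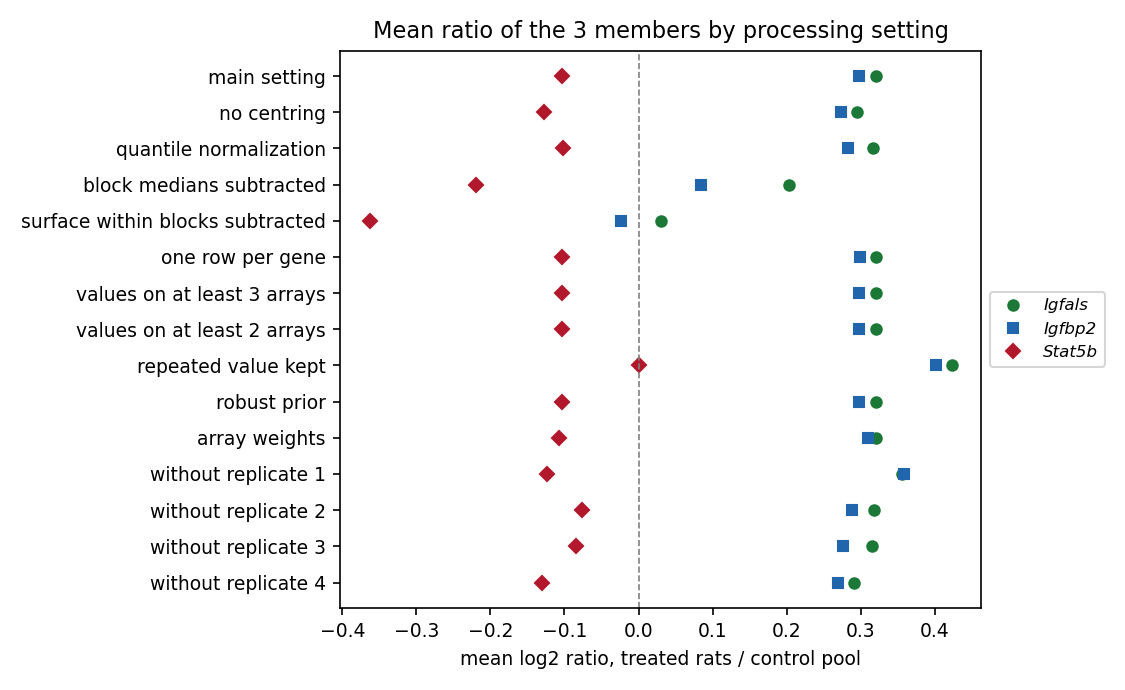
Mean log2 ratio of treated rats over the control pool (horizontal axis) for Igfals, Igfbp2 and Stat5b under each processing setting (vertical axis). Igfals and Igfbp2 lie to the right of Stat5b in each setting shown. Not centring shifts the members alike and some settings leave their means unchanged, so these settings cannot alter that order. Igfals and Igfbp2 lie at 0.20 and 0.08 where block medians were subtracted and closer to each other elsewhere. The place of the members relative to 0 moves most with the surface subtracted, to 0.03 for Igfals, -0.02 for Igfbp2 and -0.36 for Stat5b.

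The other genes of the axis came from a list of 95 symbols. Of these, 24 were listed under a single symbol, and 22 had a ratio on all arrays, which leaves 19 beside the 3 members, on 20 clones. Igf1, the main product of growth hormone action in liver, and the phosphatase gene Ptpn2, an inhibitor of Jak and Stat signalling, were printed but had a measured ratio on 0 of 4 arrays. Of the 20 clones, 3 were positive calls, 2 were negative calls and 15 were not called, with a median ratio of 0.04 (log2). Over all clones tested 13.6% were positive and 15% negative calls and the median was -0.01, so the counts of the list are near the background.

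Among the ligands, Igf2, the fetal growth factor that binds the type 1 IGF receptor, was the positive call. It was at 0.33, 0.46, 0.40 and 0.48 (log2) on replicates 1 to 4, with a mean of 0.42 ± 0.07 (SD, n = 4, limma adjusted p = 0.0177), 1.34-fold. Igf2 lies in block 5 like Igfals and Stat5b and was called also with block medians subtracted (0.30 ± 0.07, limma adjusted p = 0.0375), where 8.08% of all clones were positive calls, but not without the surface (0.13 ± 0.01, limma adjusted p = 0.184). Its call ended without replicate 1 (0.45), 3 (0.42) or 4 (0.40). Ghrh, the hypothalamic releasing hormone, was at -0.28 ± 0.23 and Sst, the inhibitory peptide somatostatin, at -0.07 ± 0.68, and neither passed. The Sst arrays split, with replicates 2 and 3 at 0.58 and 0.46 and replicates 1 and 4 at -0.64 and -0.66.

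Ghr, the growth hormone receptor, was the receptor of the list with a ratio on all arrays. It was at -0.12, 0.19, 0.05 and 0.35 (log2) on replicates 1 to 4, with values on both sides of 0, and its mean of 0.12 ± 0.20 (SD, n = 4) did not pass (limma adjusted p = 0.449).

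The binding proteins of the list, apart from Igfals and Igfbp2, were Igfbp3, Igfbp5 and Igfbp6. Igfbp3, the main plasma carrier and a partner of the acid-labile subunit, was at 0.18, 0.17, 0.40 and 0.41 (log2) on replicates 1 to 4, and its mean of 0.29 ± 0.13 (SD, n = 4) did not pass (limma adjusted p = 0.0623). Igfbp5, the other partner of the acid-labile subunit, was at 0.41, 0.29, 0.14 and 0.53, with a mean of 0.34 ± 0.17, 1.27-fold, and passed (limma adjusted p = 0.0457). Its call ended without replicate 1 (0.32), 3 (0.41) or 4 (0.28), without centring (0.32), with block medians subtracted (0.20) and from either spot alone (0.33 and 0.31). Igfbp6, which prefers IGF-II, was at -0.19 ± 0.07 and did not pass (limma adjusted p = 0.161). Igfals, Igfbp2, Igfbp3 and Igfbp5 were positive on each array and lie in the odd-numbered blocks 1, 5 and 7, whereas Igfbp6 was negative on each array and lies in block 8. Without the surface the 5 genes had limma adjusted p-values between 0.258 and 0.949, and 0 of them had an unadjusted p under 0.05, with Igfbp3 at 0.01, Igfbp5 at 0.14 and Igfbp6 at -0.02.

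Among signal transducers the negative calls were clones of the Akt kinases, which act downstream of the insulin and IGF-I receptors. One clone of Akt2 was at -1.26, -1.86, -1.58 and -1.54 (log2) on replicates 1 to 4, with a mean of -1.56 ± 0.25 (SD, n = 4, limma adjusted p = 0.000374), and it was also called without the surface (-1.43 ± 0.24, limma adjusted p = 0.00148). A second Akt2 clone was at -0.35 ± 0.29 and did not pass (limma adjusted p = 0.0734), so the clones listed under this gene disagree in size. Akt1 was at -0.57 ± 0.37 (limma adjusted p = 0.0267), and at -0.80 ± 0.25 without the surface (limma adjusted p = 0.0103), with its call ending without replicate 1 (-0.55) or 3 (-0.58). Stat3, which growth hormone and interleukin-6 both activate, was at -0.12 ± 0.15, close to the value of Stat5b. Without the surface these genes lay further apart, Stat3 at -0.05 and Stat5b at -0.36. Stat3 did not pass. The adaptor genes Grb2 (0.26 ± 0.09) and Shc1 (0.07 ± 0.37) did not pass either. Ptpn1, a phosphatase that dephosphorylates Jak2 and the insulin receptor, was the inhibitor with a ratio on all arrays and was at 0.01 ± 0.22.

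Of 6 liver genes known to depend on growth hormone or to act with it, limma called 1 positive and 0 negative, and 1 was negative at an unadjusted p under 0.05. Over all clones tested 13.6% were positive and 15% negative calls, and 22.9% were negative at that unadjusted p. The call was Cebpb, a transcription factor of the acute phase response, at 0.45, 0.02, 0.65 and 0.60 (log2) on replicates 1 to 4, with a mean of 0.43 ± 0.29 (SD, n = 4, limma adjusted p = 0.0402). It ended with block medians subtracted (0.22, limma adjusted p = 0.0983) and without the surface (0.06, limma adjusted p = 0.548). The call also ended from the spot with the lower mean (0.38, limma adjusted p = 0.0859) and without replicate 1 (0.42), 3 (0.36) or 4 (0.37). Cyp2c12, the steroid sulfate hydroxylase that the female pattern of growth hormone secretion maintains in rat liver, was at -0.25, -0.30, -0.52 and -0.04 on replicates 1 to 4. It was negative on each array, with a mean of -0.28 ± 0.20 that did not pass (limma adjusted p = 0.0896). Cyp2c12 lies in block 5 too, and without the surface it was a negative call at -0.55 ± 0.23 (limma adjusted p = 0.0237). Cyp2c22, Serpina3c, Serpina3n and Serpina6 did not pass, with means between -0.10 and 0.16. Of these Cyp2c22, in block 8, became a positive call with block medians subtracted (0.34 ± 0.10, limma adjusted p = 0.0331), and without the surface it was at 0.29 ± 0.14 (limma adjusted p = 0.0640). Clones listed under several symbols were not counted. Beside the Cyp4a clone given above, 3 clones shared by Sult2a genes were at -0.12, -0.22 and -0.77.

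**Figure D4:**
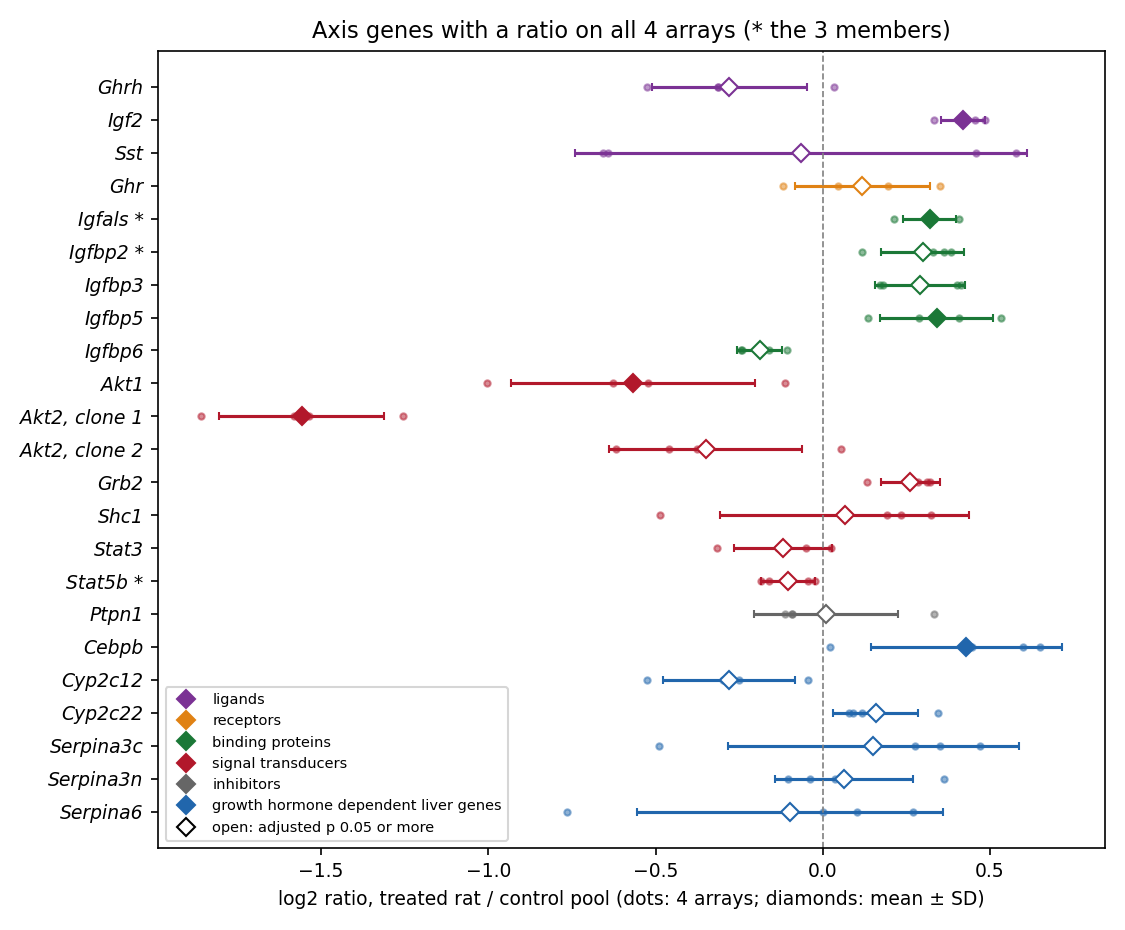
Log2 ratio of treated rat over control pool (horizontal axis) for the clones of the axis list with a ratio on all arrays (vertical axis, grouped by role), with dots for the 4 arrays and diamonds for the mean ± SD, filled where the limma adjusted p was under 0.05. The binding protein genes other than Igfbp6 lie between 0.29 and 0.34, and the lowest mean is that of an Akt2 clone at -1.56.

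Named clones with the array profile nearest to each member were found by the root mean square difference of the centred log2 ratio over the 4 arrays. Nearest to Igfals were Ppp2ca, the catalytic subunit of a serine/threonine phosphatase (0.0265), Kif1c, a kinesin motor (0.0334), and Galnt1, an enzyme that starts O-glycosylation (0.0384). Nearest to Igfbp2 were Capza2, an actin capping protein subunit (0.0460), Grb2 (0.0485) and Selenbp1, a selenium-binding protein (0.0512). Nearest to Stat5b were Wdr13 (0.0297), the metallothionein gene Mt4 (0.0312) and the vasopressin receptor gene Avpr1a (0.0371). These profiles were common. Within 0.1 (log2) lay 152 other clones for Igfals, 143 for Igfbp2 and 57 for Stat5b. Of those near Igfals 96.1% lay in the odd-numbered blocks, of those near Igfbp2 94.4% and of those near Stat5b 47.4%, against 50.7% of all clones tested. Clones near Igfals and Igfbp2 were picked for like positive ratios, and 94.98% of all positive calls lay in these blocks. Their shares are therefore not a separate result.

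Markers of liver cell types were read from the same fit, beside which the part of cell composition in the member ratios was not tested. In whole-liver RNA a change in the number of cells of a type and a change in RNA per cell cannot be told apart. Of 8 clones of hepatocyte markers, from 7 genes, all 8 had a negative mean and 2 were negative calls (Fgb and Tf). Their median was -0.50 (log2), against -0.01 over all clones tested, and the mean over the list lay between -1.12 and -0.11 on the 4 arrays. For some the SD exceeded the size of the mean, as for a clone of Alb (-0.54 ± 0.71) and for Serpina1 (-0.64 ± 0.69). The part of the place on the slide in these marker values was not tested. These marker counts stand beside 13.6% positive and 15% negative calls over all clones. Of 7 clones of stellate cell and fibroblast markers 3 were positive and 2 negative calls, and the clones of Col1a2 lay on both sides, at 0.39 and -0.58. The endothelial markers Kdr (0.40) and Cdh5 (-0.85) also lay on opposite sides, and the macrophage marker Lyz2 was at 0.18. Hbb, a globin of red blood cells, was at -0.88 and a negative call, while Alas2 was at 0.11. Lymphocyte and bile duct markers had no clone with a ratio on all arrays.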

How the data were processed

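The authors' table, as deposited, holds a log10 ratio of the 2 channels for every spot, with no unit stated. The unit was read from the numbers, since their antilogs in thousandths were whole within 0.02 for 99.99% to 100% of spots per array. How the arrays were scanned, background-corrected or normalized is not stated in the labels. The value repeated on 1171 to 1189 spots per array was taken as a missing ratio, which left 6499 to 6517 spots. Values were converted to log2, spots of a listed clone averaged (5674 clones, with each of 2436 unlisted spots counted as 1) and each array centred on its median. limma 3.58.1 in R 4.3.3 then tested the mean of 4704 clones with ratios on all arrays against 0 (moderated statistic, Benjamini-Hochberg over all clones, threshold 0.05), and the code was tested on simulated data. Symbols follow an older platform annotation, updated through GRCr8 gene numbers for 5140 spots. Promoters of 3 of 3 members were found in a RefSeq table. Since the pool is 1 control sample, variation among control rats does not enter, and the number of arrays limits the precision. The labels do not number the treated rats, so p-values assume a different rat on each array. The surface was a robust loess over row and column within each block (span 0.4, degree 1). The members, lists and alternatives were chosen with earlier results of these data known. Named genes are the members, the listed axis genes and the 3 named clones nearest to each member.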

Additional observations from a re-analysis of the deposited data

How the results depend on the processing

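Each of Igfals, Igfbp2 and Stat5b was recomputed under 16 alternatives, and Igfals kept a positive mean in all of them. Its call ended without centring (0.30), with block medians subtracted (0.20), without the surface (0.030) and from its second spot alone (0.26), and leaving out 1 array gave 0.29 to 0.36. Igfbp2 became a positive call with quantile normalization (0.28), with the repeated value kept (0.40), with array weights (0.31) and from its second spot (0.32), and turned to -0.024 without the surface. With block medians subtracted Igfbp2 was at 0.08 (adjusted p = 0.541) and Stat5b at -0.22 (adjusted p = 0.0854, limma). Leaving out 1 array gave 0.27 to 0.36 for Igfbp2 and -0.13 to -0.08 for Stat5b. Stat5b became a negative call without the surface (-0.36) and turned to 0.00018 with the repeated value kept, a setting that moves the centre of all clones by 0.10 (log2). The difference of Igfals minus Igfbp2 lay between -0.0034 and 0.039 with 1 array left out and was 0.12 with block medians subtracted and 0.05 without the surface, while with 1 array left out that of Igfals minus Stat5b lay between 0.39 and 0.48 and that of Igfbp2 minus Stat5b between 0.36 and 0.48.

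Over all clones, positive calls numbered 638 and negative ones 706. Positive calls fell in number to 380 with block medians subtracted and to 139 without the surface, and were 993 with the repeated value kept and 1148 with array weights. Negative calls were 462 and 1211 in these last settings. With 1 array left out they were 99 to 872 positive (308, 872, 99 and 134 without replicates 1 to 4) and 323 to 895 negative (388, 895, 323 and 354). No centring gave 539 and 769. For the 20 other axis clones, with 3 positive and 2 negative calls, positive calls were 5 with quantile normalization, 0 without the surface (limma, 1 at an unadjusted p under 0.05), 5 with the repeated value kept and 6 with array weights. Negative calls were 5 with each spot on its own, 1 with the repeated value kept and 5 with array weights. Leaving out 1 array gave 0 to 5 positive and 1 to 4 negative calls. The median of these clones turned to -0.01 with block medians subtracted and -0.09 without the surface. The causes of these changes were not tested. No pairing of treated rats with control rats was possible because the labels give a single group with no replicate numbers. No intensities are in the table used here, so how far each spot stood above background is unknown.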
